A study of Mus musculus with 4 samples.

Results

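The genes described here encode the proteins of the small (40S) subunit of the cytosolic ribosome. They were found by name on the array: every non-control probe whose gene name was Rps followed by a digit, or Rpsa (formerly Lamr1), without the ribosomal S6 kinases and Rps19bp1. This gave 32 genes with 57 probes, of 27962 distinct gene names and 41174 probes in all. Of these genes, 14 had 1 probe, 11 had 2 and 7 had 3. A table of RefSeq genes of assembly GRCm38.p6 held 31 of the names as current symbols and 1, Rps3a, as a synonym of Rps3a1.

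The cells were B16-F10, an established mouse melanoma line, grown in culture. Each of 4 Agilent arrays of 60-base probes compared cells of the same passage after 2 treatments. RNA of cells exposed for 2 h to a goat polyclonal antibody against mouse TIM3 was labelled with Cy5. RNA of cells exposed to unspecific goat IgG was labelled with Cy3. The labels call the anti-TIM3 antibody an agonist for replicate 1 only. TIM3 is an immune checkpoint receptor, and the comparison asks which transcripts of the tumour cells differ after it is engaged by an antibody. Replicates 1 to 4 came from passages 14, 16, 18 and 19, and the labels give both antibodies at 15 ug/ml, except that the anti-TIM3 treatment is not described again for replicate 3. Each passage gave 1 array, all from the same line. The antibody sample was in Cy5 on all 4 arrays, so an effect of the antibody and an effect of the dye on a probe cannot be told apart. A log2 ratio above 0 means more Cy5 than Cy3 signal.

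The 40S subunit binds the mRNA and holds the site where codons are read, while the large (60S) subunit joins amino acids. Its proteins are spread over a head, which swivels during translocation and receives the entering mRNA, and a body with a platform, where initiation factors dock and the start codon is found. The mRNAs of ribosomal proteins are among the most abundant of a dividing cell, and they share a pyrimidine-rich start that lets growth signals through mTOR control their translation. Many of these genes have processed pseudogenes and near-identical copies elsewhere in the genome, with which a probe can share its target: the RefSeq table names 118 pseudogenes after 23 of the 32 genes, 23 of them after Rps12, 13 after Rps19, 12 each after Rps2 and Rpsa, 6 after Rps18 and 2 after Rps23. The probe values below are therefore those of a probe and its copies, which the array does not separate.

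The following probe sequences are printed because the results turn on them. The first is the probe with the highest ratio among the small-subunit genes, and the next are pairs of probes of the same gene that gave different ratios. The last 2 belong to genes that did not rise. All are written 5′ to 3′ as the files give them, in lower case throughout. Coordinates are those of the files, build mm7.
Rps23 A_51_P376165, chr13:87997838-87997897, plus strand: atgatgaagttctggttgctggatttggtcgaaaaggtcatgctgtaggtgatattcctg
Rps18 A_51_P287677, chr17:32030069-32030128, minus strand: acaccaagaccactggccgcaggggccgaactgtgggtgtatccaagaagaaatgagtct
Rps18 A_52_P193899, chr17:32030556-32030615, minus strand: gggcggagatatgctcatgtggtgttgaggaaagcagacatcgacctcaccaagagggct
Rps3a A_52_P49886: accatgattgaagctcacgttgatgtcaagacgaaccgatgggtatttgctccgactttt
Rps3a A_51_P292357, chr3:86250956-86251387, minus strand: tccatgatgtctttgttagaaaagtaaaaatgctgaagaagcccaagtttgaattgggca
Rps15 A_51_P195997, chr10:80076004-80076063, plus strand: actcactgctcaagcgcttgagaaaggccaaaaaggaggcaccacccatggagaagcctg
Rps9 A_51_P436928, chr7:3327614-3327673, plus strand: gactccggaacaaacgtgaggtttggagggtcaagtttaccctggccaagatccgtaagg
The span of 432 bases of the second Rps3a probe is longer than the 60 bases of a probe, so this probe spans a gap in the genome, as 16 of the 57 small-subunit probes did. Exons and untranslated regions are not annotated in the files.

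Most of the small-subunit genes had at least 1 probe with a higher signal after anti-TIM3 than after IgG. By the brightest probe of each gene, 24 of 32 genes were higher, 1 was lower (Rps15) and 7 did not pass, with a median log2 ratio of 0.33 (limma, Benjamini-Hochberg adjusted p under 0.05 over all 26545 tested probes). By probe, 30 of the 55 tested were higher, 4 were lower and 21 did not pass, with a median of 0.20 and a range from -0.34 to 0.83. Over all tested probes 14.2% were higher and 13.6% lower, with a median of 0.01, and over the brightest tested probe of each gene name 14.8% were higher and 12.8% lower. The other 2 small-subunit probes, of Rps19 and Rps2, were not tested, because they were well above background on at most 1 array in Cy5 and on 0 in Cy3. Each of the 55 tested probes passed the background test in either channel of every array, so the filter on dim probes did not choose them by a difference.

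The count has to be read beside the brightness of the probes. The scanner files merge 2 scans of different gain, and spots too bright for the high gain were read at the low gain and scaled up. Of the 57 small-subunit probes, 38 were read at low gain in both channels on all 4 arrays, 6 in some channels or arrays, and 13 on no array. Of all tested probes read at low gain throughout, 512 in number, 57.4% were higher and 6.05% lower, with a median log2 ratio of 0.16, against 29 of 38 small-subunit probes higher and 0 lower (31 and 1 at an unadjusted p under 0.05), with a median of 0.35. The 432 probes of that class that belong to neither ribosomal subunit had a median of 0.15, with 234 higher and 30 lower. Among the 1373 tested probes of mixed gain 16.8% were higher and 18.2% lower, against 0 and 1 of 6 small-subunit probes (0 and 3 at an unadjusted p under 0.05). Among the 24660 read at high gain throughout 13.2% were higher and 13.5% lower, against 1 and 3 of 11. The part of the scan gain in the ratios was not tested.

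Within the bright range the ratio rose with brightness, for the small-subunit probes and for the others. Of the 52 brightest tested probes, 98.1% were higher, and 11 of 11 small-subunit probes among them were, with medians of 0.52 and 0.52. For the next 130 probes, those still over 16 in mean log2 intensity, the figures were 86.2% and 12 of 14 small-subunit probes, with medians of 0.27 and 0.46. From 15 to 16 they were 41.9% of 406 and 6 of 15, with medians of 0.10 and 0.09. Over the 38 small-subunit probes read at low gain throughout, the log2 ratio correlated with the mean log2 intensity at r = 0.80 and with the GC content of the probe at r = 0.05, a description across probes that share arrays.

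**Figure D1:**
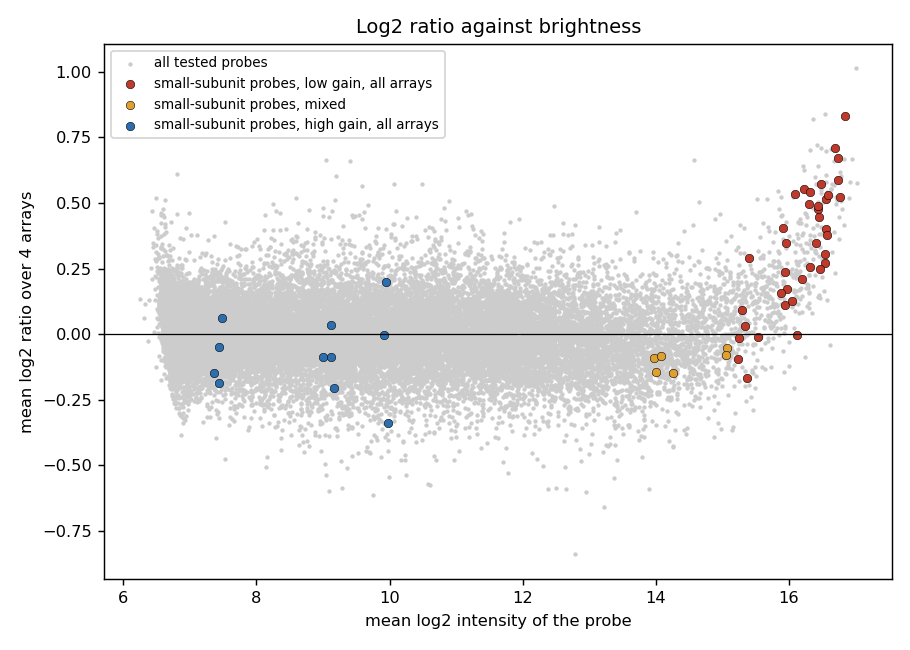
Mean log2 ratio over 4 arrays (vertical) against the mean log2 intensity of the probe (horizontal) for the 26545 tested probes (grey) and the 55 tested small-subunit probes, coloured by scan gain. The small-subunit probes read at low gain throughout lie at the bright end, where the grey probes also lie mostly above 0, and those read at high gain throughout lie between -0.34 and 0.20.

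The processed signals that the authors deposited gave smaller ratios. Per the file headers, the authors' software had subtracted the background and normalised the dyes. In them 12 of the 55 small-subunit probes were higher and 6 lower by the same limma test, with a median log2 ratio of 0.00, against 10.8% and 8.97% of all tested probes. Among the probes read at low gain throughout, 11 of 38 small-subunit probes were higher and 2 lower, against 14.3% and 12.1% of the 512. The 38 probes had deposited Cy3 signals from 26022 to 98379, with a median of 63337, and Cy5 signals from 24030 to 133312, with a median of 66102. Across the 55 probes the 2 sets of ratios correlated at r = 0.92, so the order of the probes was alike while the level differed.

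**Figure D2:**
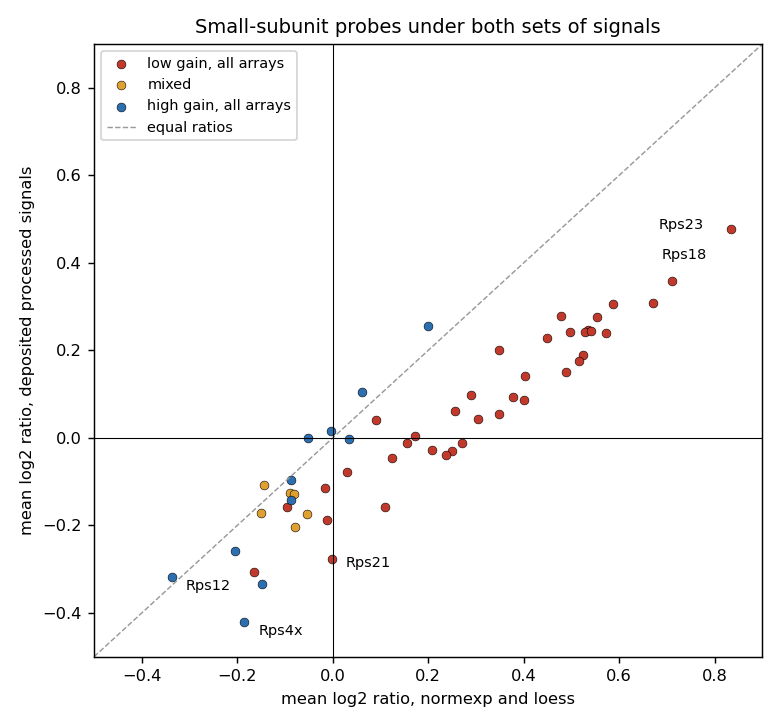
Mean log2 ratio of each of the 55 tested small-subunit probes after normexp and loess (horizontal) and from the deposited processed signals (vertical), coloured by scan gain, with the line of equal ratios. Probes read at low gain throughout lie below the line, and Rps23 is highest on both axes at 0.83 and 0.48.

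A set of 12 probes of 10 genes was higher in 4 ways of processing: normexp and loess, the deposited signals, ratios centred within each gain class, and ratios with trends on intensity and base counts removed. These genes were Rps2, Rps4x, Rps7, Rps12, Rps14, Rps18, Rps20, Rps23, Rps28 and Rps29, with Rps20 and Rps28 each by 2 probes. The share was 12 of 55 small-subunit probes (21.8%), against 6.55% of all tested probes, and 11 of 38 (28.9%) against 13.3% among probes read at low gain throughout. These 12 were all the small-subunit probes higher in the deposited signals, so the other ways removed none. The 38 probes were brighter than the 512, with medians of 16.3 and 15.8 in mean log2 intensity. Their deposited ratios also rose with brightness (r = 0.66). A share at matched brightness was not tested. Centred within gain classes, 24 small-subunit probes were higher and 8 lower, against 13.5% and 15.1% of all tested probes, with a median of 0.09. With the trends removed 23 were higher and 8 lower, against 13.1% and 13.2%, with a median of 0.04. A further 5 probes that were higher after loess, among them those of Rps25, Rps27l and Rps3a, had deposited ratios below 0, from -0.03 to -0.01 for these 3 genes.

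Among the proteins of the head, 11 of 14 genes were higher by their brightest probe and 1 was lower, with a median log2 ratio of 0.41. Of the brightest tested probes of all gene names, 14.8% were higher and 12.8% lower. In the deposited signals 5 of the 14 head genes were higher and 1 lower by that probe, with a median of 0.19. Rps18, whose protein lies at the top of the head beside the large subunit, had the highest ratio of the head genes. Its brightest probe, on the minus strand of chromosome 17, had log2 ratios of 0.91, 0.59, 0.68 and 0.66 on replicates 1 to 4, a mean of 0.71 ± 0.14 (SD, n = 4; limma, adjusted p = 0.000152). All 4 arrays were above 0, and replicate 1 was the highest. The deposited signals of this probe were 85699, 81437, 82305 and 81565 in Cy3 and 118180, 99512, 105545 and 102144 in Cy5, a log2 ratio of 0.36. Cy5 exceeded Cy3 on each array, and the 4 Cy5 values lay above the 4 Cy3 values without overlap.

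Rps28, a small protein near the exit of the mRNA channel, had 3 probes, all higher. The probe with the highest ratio gave 0.73, 0.65, 0.67 and 0.64, a mean of 0.67 ± 0.04 (SD, n = 4; limma, adjusted p = 6.64e-05), and 0.31 in the deposited signals. Another probe that overlaps it gave 0.60, 0.60, 0.65 and 0.49, a mean of 0.59 ± 0.06 (SD, n = 4; adjusted p = 0.000101, limma). The last gave 0.26 on average, with 0.26, 0.26, 0.22 and 0.29. The last probe lay below the other 2 on every array, by 0.42 and 0.33 on average, and both differences passed the limma test of probe pairs given below.

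Rps12 gave calls in both directions. Its bright probe had 0.59, 0.46, 0.48 and 0.38 (mean 0.48 ± 0.09, SD, n = 4; limma, adjusted p = 0.000318), with 0.28 in the deposited signals. Its dim probe, read at high gain throughout, had -0.14, -0.39, -0.21 and -0.60 (mean -0.34 ± 0.21, SD, n = 4; limma, adjusted p = 0.008), with -0.32 in the deposited signals, where it did not pass. The arrays did not overlap between the probes, which lie about the same gene on chromosome 10 and carry different records. The dim probe had deposited Cy3 signals between 532 and 1076 and Cy5 signals between 446 and 875, and the bright one between 53300 and 66058 and between 64822 and 81241.

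Rps3, which lines the entry of the mRNA channel and also acts in DNA repair, had 0.62, 0.72, 0.41 and 0.47 at its bright probe, a mean of 0.55 ± 0.14 (SD, n = 4; limma, adjusted p = 0.000445), and 0.09, -0.20, -0.27 and 0.05 at its other probe, which did not pass. The bright probe was at 0.28 in the deposited signals, where it did not pass. The first was above 0 on every array, and the second lay on both sides of 0. Rps20, a head protein that neighbours Rps3, was called higher by both of its probes, at 0.53 and 0.20. Its dimmer probe was the only small-subunit probe read at high gain throughout that was called higher, with 0.21, 0.26, 0.22 and 0.11 on the 4 arrays and a deposited ratio of 0.26. Rps29 and Rps16 followed at 0.50 and 0.52. In the deposited signals Rps29 was called higher at 0.24, and Rps16 did not pass at 0.18.

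Rps27a is made as a fusion of ubiquitin to the ribosomal protein. Its probe gave 0.60, 0.23, 0.32 and 0.25 on the 4 arrays (mean 0.35 ± 0.17, SD, n = 4; adjusted p = 0.00395, limma) and 0.20 in the deposited signals, where it did not pass. Rps19, which is mutated in many patients with Diamond-Blackfan anaemia, gave 0.24, 0.02, 0.09 and 0.15 at its brightest probe (mean 0.12 ± 0.09, SD, n = 4; limma, adjusted p = 0.053), above 0 on all arrays but not called. A second Rps19 probe lay below 0 on all 4 arrays, from -0.13 to -0.01, and did not pass. Rps15, a head protein near the decoding site, was the only gene lower by its brightest probe, with -0.13, -0.17, -0.19 and -0.10 (mean -0.15 ± 0.04, SD, n = 4; limma, adjusted p = 0.0141), and it stayed below 0 and called in the deposited signals at -0.17. Without replicate 2 or replicate 3 it was no longer called. Rps10 at 0.29 and Rps25 at 0.21 were both called higher by their brightest probe. Neither passed in the deposited signals, at 0.10 and -0.03.

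**Figure D3:**
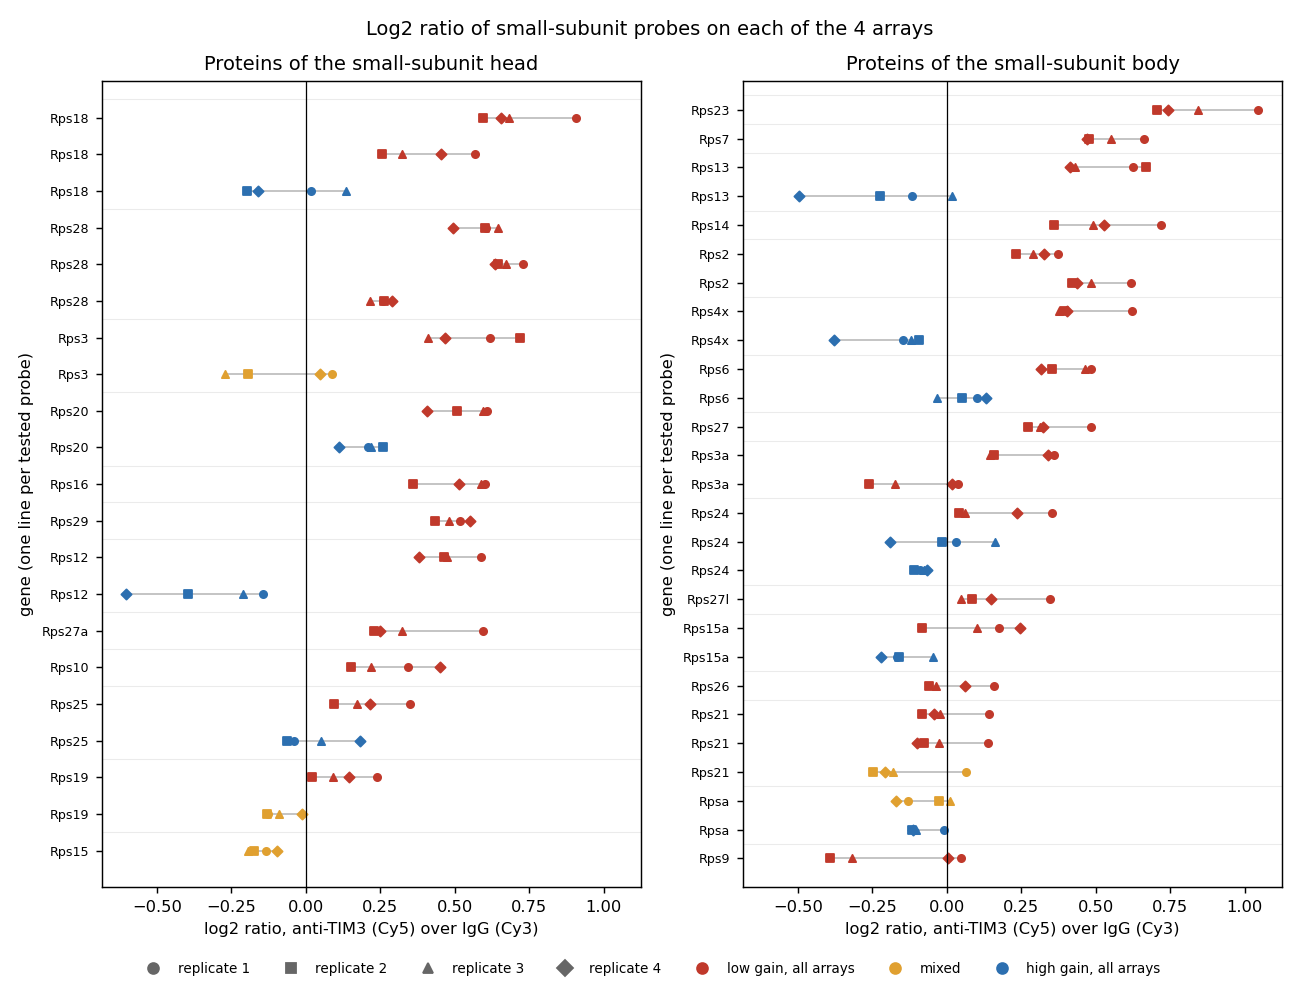
Log2 ratio of 48 of the 55 tested small-subunit probes on each of the 4 arrays (horizontal; symbols give the replicate, colours the scan gain), with a line per probe, for proteins of the head (left) and of the body (right). Replicate 1 is often the highest, Rps23 and Rps18 lie farthest to the right, and the dim probe of Rps12 lies farthest to the left.

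Among the proteins of the body, 13 of 18 genes were higher by their brightest probe and 0 were lower after loess, with a median of 0.29. The shares over all gene names were 14.8% and 12.8%. In the deposited signals 4 of the 18 body genes were higher and 2 lower by that probe, with a median of 0.02. The difference between head and body was not tested. Rps23, which reaches into the decoding site, had the highest ratio of all small-subunit genes. Its only probe, on the plus strand of chromosome 13, gave 1.04, 0.71, 0.84 and 0.74, a mean of 0.83 ± 0.15 (SD, n = 4; limma, adjusted p = 0.000108), or 1.78-fold. In the deposited signals it had 87719, 84009, 80795 and 89718 in Cy3 and 133312, 110220, 116193 and 117560 in Cy5, a log2 ratio of 0.48 or 1.39-fold. Every Cy5 value lay above every Cy3 value.

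Rps4x, the X-linked form of S4, gave calls in both directions, like Rps12. Its bright probe had 0.62, 0.39, 0.38 and 0.40 (mean 0.45 ± 0.12, SD, n = 4; limma, adjusted p = 0.000652), with 0.23 in the deposited signals. Its dim probe, for which the files give no position, had -0.15, -0.09, -0.12 and -0.38 (mean -0.19 ± 0.13, SD, n = 4; limma, adjusted p = 0.0243), with -0.42 in the deposited signals. The deposited signals of the dim probe were between 78 and 91 in Cy3 and between 53 and 69 in Cy5. The call of the dim probe was lost without replicate 1 and without replicate 4.

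Rps6, the protein that S6 kinases phosphorylate downstream of mTOR, had 0.48, 0.35, 0.46 and 0.32 at its bright probe (mean 0.40 ± 0.08, SD, n = 4; limma, adjusted p = 0.000568), with 0.14 in the deposited signals, where it did not pass. Its dim probe had 0.10, 0.05, -0.03 and 0.13 and did not pass. Rps14, which is lost in the 5q- syndrome of human bone marrow, had 0.72, 0.36, 0.49 and 0.53 (mean 0.52 ± 0.15, SD, n = 4; limma, adjusted p = 0.000615) and 0.19 in the deposited signals. Both bright probes were above 0 on all 4 arrays, with replicate 1 highest. Rps7, a body protein that can bind Mdm2, and Rps13, which sits near the bridge to the large subunit, were at 0.54 and 0.53. In the deposited signals Rps7 was called higher at 0.24, and this Rps13 probe did not pass at 0.25.

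Rps27 and Rps27l are close relatives, and Rps27l is a p53 target. Rps27 had 0.48, 0.27, 0.31 and 0.32 (mean 0.35 ± 0.09, SD, n = 4; limma, adjusted p = 0.00118), and Rps27l had 0.34, 0.09, 0.05 and 0.15 (mean 0.16 ± 0.13, SD, n = 4; limma, adjusted p = 0.0465). Both were above 0 on all arrays. Neither passed in the deposited signals (0.06 and -0.01), and the call of Rps27l was lost without replicate 1, 2 or 4. Rpsa, which doubles as the laminin receptor, did not pass at either probe after loess. The brighter had -0.13, -0.03, 0.01 and -0.17 (mean -0.08 ± 0.08, SD, n = 4), and the other -0.01, -0.12, -0.10 and -0.11 (mean -0.09 ± 0.05, SD, n = 4). The brighter probe was called lower in the deposited signals (-0.20; limma, adjusted p = 0.0474) and with gain classes centred (-0.17; limma, adjusted p = 0.0324). The other Rpsa probe passed in neither.

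Rps9, Rps15a, Rps21, Rps26 and Rpsa were the body genes that did not pass by their brightest probe. Rps9, printed above, had 0.05, -0.39, -0.32 and 0.00 (mean -0.17 ± 0.22, SD, n = 4), with replicates 2 and 3 low. Rps21 had 3 probes between -0.14 and 0.00, and in the deposited signals its brightest was at -0.28 and called lower. The dim Rps15a probe was called lower at -0.15 (-0.17, -0.16, -0.05 and -0.22; adjusted p = 0.0219, limma), while its bright probe was at 0.11 and did not pass. The call of the dim probe was lost without replicate 1, 2 or 4. Rps2, Rps3a and Rps24 were called higher by their brightest probe at 0.17 to 0.30. In the deposited signals these probes were at 0.04, -0.03 and 0.00, and none of them passed.

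Probes of the same gene often gave different ratios. Among 25 pairs of tested probes of the same small-subunit gene that share no run of 20 bases, in 18 genes, 20 differed in log2 ratio (limma on the difference per array, Benjamini-Hochberg adjusted p under 0.05 over 11730 such pairs on the whole array), against 34.5% of all pairs. The median absolute difference was 0.33, against 0.11 over all pairs. After loess the brighter probe had the higher ratio in 24 of the 25 pairs and in 19 of the 20 that differed. How often this held over all pairs on the array was not counted. In the deposited signals the dimmer probe had the higher ratio in pairs of Rps2, Rps20, Rps21, Rps24, Rps25 and Rpsa. Pairs that share a probe are not independent.

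The largest differences were in Rps12 (0.81), Rps18 (0.76) and Rps13 (0.74), each between a probe read at low gain and one read at high gain throughout. The pairs of which both probes were read at low gain throughout also differed after loess, in 6 of 7 cases. In the deposited signals 4 of these 7 differed. The share among all such pairs on the array was not counted. The 2 bright Rps18 probes printed above differed by 0.34, 0.34, 0.36 and 0.20 on the 4 arrays (mean 0.31 ± 0.07, SD, n = 4; limma, adjusted p = 0.00308), and the 2 Rps3a probes by 0.32, 0.42, 0.32 and 0.32 (mean 0.35 ± 0.05, SD, n = 4; limma, adjusted p = 0.00181). In Rps2 the dimmer of 2 bright probes had the higher ratio, by 0.19. Of the 25 pairs, 10 differed in the deposited signals. The 2 bright Rps18 probes still differed there, by 0.27. The Rps18 pair with the difference of 0.76 (0.36 there) and the Rps3a pair (0.13 there) did not pass. An Rps21 pair that did not differ after loess (0.01) was among the 10, with the dimmer probe higher (-0.16).

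With pairs of overlapping probes included, 22 of 28 small-subunit pairs differed by limma over 11989 pairs, against 33.9% of all pairs. This inclusion was chosen after the data had been seen.

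**Figure D4:**
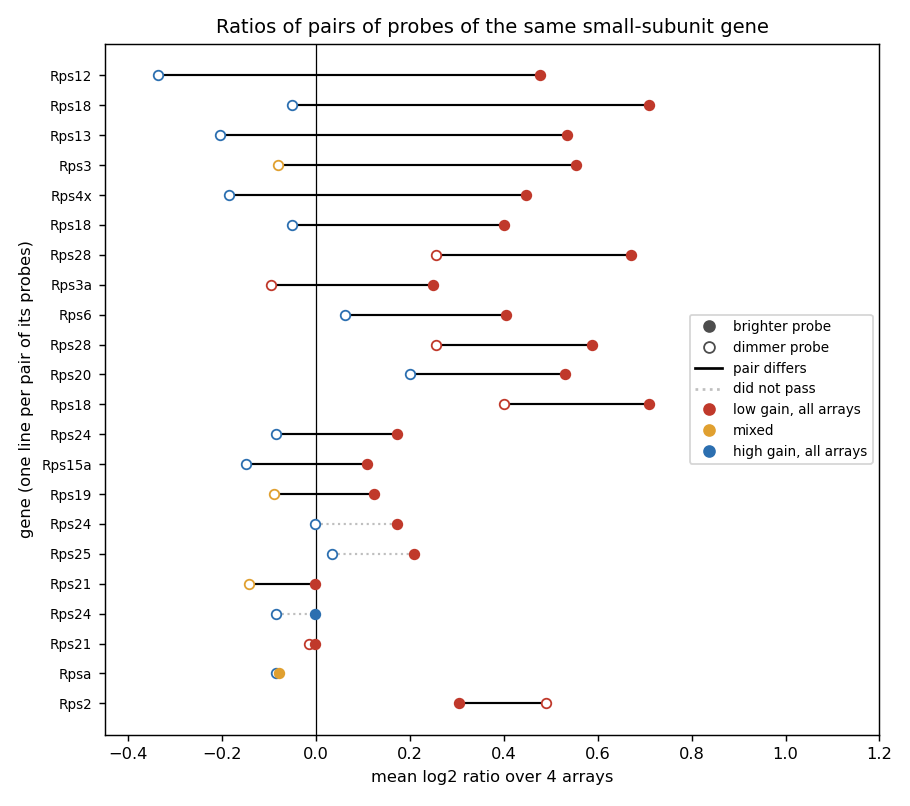
Mean log2 ratio over 4 arrays of the brighter (filled) and the dimmer (open) probe for 22 of the 25 pairs of probes of the same small-subunit gene, ordered by the difference and coloured by scan gain. Solid lines mark the 17 of these pairs that differed by the limma test, and the brighter probe lies to the right in every pair but that of Rps2.

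The dim probes also differed from the bright ones in the sequence record they carried. Of the 38 probes read at low gain throughout, 35 carried a RefSeq mRNA record in the files, and of the 13 read at high gain throughout, 3 did. The 43 probes that carried a RefSeq mRNA record had 27 called higher and 2 lower, with a median log2 ratio of 0.26. The 14 that carried other records had 3 higher and 2 lower among 12 tested, with a median of -0.03. Of all tested probes 14.2% were higher and 13.6% lower, and of those read at low gain throughout 57.4% and 6.05%. The shares by record over the whole array were not counted. Record and brightness move together here, and their separate parts were not tested.

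The level of these genes differed between the arrays. The large-subunit probes had the same order of arrays, with medians of 0.21, 0.05, 0.11 and 0.17 on replicates 1 to 4. The median log2 ratio of the 55 probes was 0.34 on replicate 1, 0.09 on replicate 2, 0.14 on replicate 3 and 0.24 on replicate 4. The medians from the deposited signals were 0.09, -0.09, -0.02 and 0.04, so replicates 1 and 4 lay above 0 and replicates 2 and 3 below. Across the 55 probes the ratios correlated at r = 0.94 between replicates 2 and 3, at 0.92 between 1 and 4 and at 0.79 to 0.87 between the other pairs, a description across probes of 1 gene group. Whether other probes pair the arrays in this way was not tested. On replicate 1 more probes were read at low gain in Cy3, 1333 against 545 to 578 on the others, and in Cy5 1855 against 1365 to 1720.

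The genes of the large subunit, tested the same way, were also mostly higher after loess by their brightest probe. Of 62 probes of 38 genes, 32 were higher and 2 lower, with a median of 0.13, against 14.2% and 13.6% of all tested probes. By the brightest probe 29 of 38 genes were higher and 1 lower (median 0.27), against 14.8% and 12.8% of all gene names. Among those read at low gain throughout, 31 of 42 probes were higher and 1 lower, against 57.4% and 6.05% of all such probes. In the deposited signals 10 of the 62 probes were higher and 4 lower (median 0.03), against 10.8% and 8.97% of all tested probes. By the brightest probe 10 of the 38 genes were higher there and 1 lower. The difference between the subunits was not tested. Of 2 further proteins of the 40S subunit that the name rule does not take, Fau, which is made as a ubiquitin-like fusion with S30, had 0.29, 0.15, 0.43 and 0.08 (mean 0.24 ± 0.16, SD, n = 4; limma, adjusted p = 0.0147) and -0.05 in the deposited signals, where it did not pass. Gnb2l1, the scaffold Rack1 on the head, was called in both directions, at 0.64 by its brighter probe and at -0.13 by the other, although both were read at low gain throughout.

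**Figure D5:**
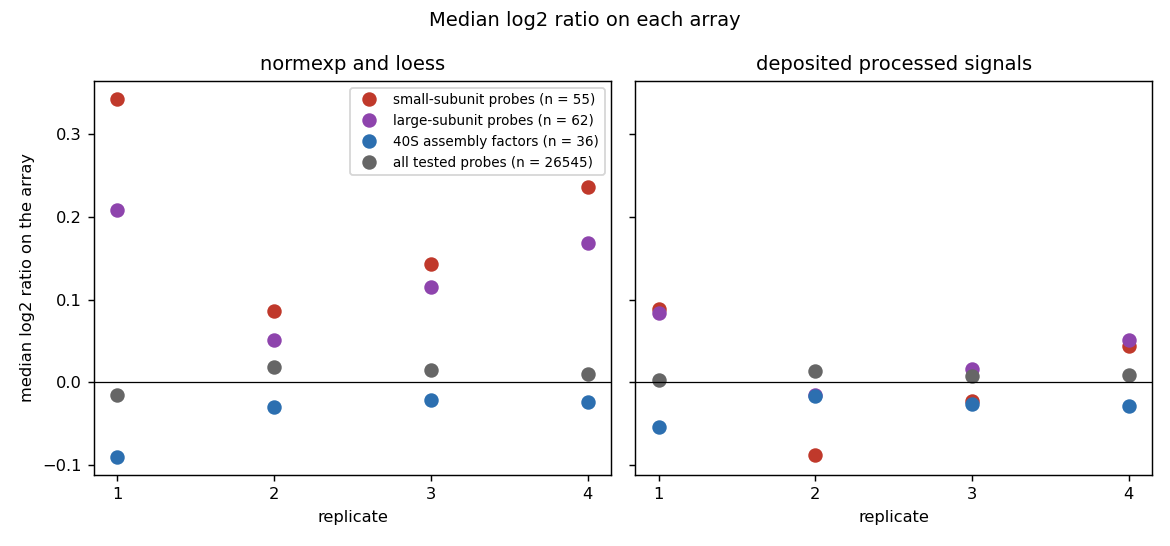
Median log2 ratio on each array (horizontal: replicate) over the small-subunit probes, the large-subunit probes, the 40S assembly factors and all tested probes, after normexp and loess (left) and from the deposited processed signals (right). After loess the small-subunit median lies between 0.09 and 0.34 and that of the assembly factors below 0 on all 4 arrays; in the deposited signals the small-subunit median lies on both sides of 0.

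None of the factors that assemble the small subunit was called higher. The list held 47 genes of early rRNA processing and 40S maturation, of which 36 were on the array and tested. By the brightest probe 0 were higher (2 at an unadjusted p under 0.05, limma) and 8 were lower, or 22.2%, with a median of -0.03. Of the brightest tested probes of all gene names, 14.8% were higher and 12.8% lower. Among all tested probes with a mean log2 intensity from 10 to 12, 16.2% were higher and 17.9% lower. From 12 to 14 the shares were 12.7% and 22.8%. The assembly list had a median of 11.6 in mean log2 intensity, so its share of lower calls was near that of probes of like brightness. The 3 lowest were Rps19bp1, a nucleolar partner of Rps19, with -0.14, -0.24, -0.23 and -0.29 (mean -0.22 ± 0.06), Riok2, a kinase of late 40S maturation, with -0.22, -0.23, -0.22 and -0.16 (mean -0.21 ± 0.03), and Bysl, a factor of pre-40S processing, with -0.37, -0.10, -0.15 and -0.19 (mean -0.20 ± 0.12; SD, n = 4 for each). All 3 were below 0 on every array. The deposited signals gave 0 higher and 6 lower. These probes were between 7.92 and 15.7 in mean log2 intensity and 1 was read at low gain throughout, so the brightness of the 2 lists differs and the difference between them was not tested.

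Of the 18 tested probes of genes that control S6 phosphorylation and the translation of ribosomal protein mRNAs, 5 were called, or 27.8%, against 27.8% of all tested probes. The S6 kinase genes Rps6ka1, Rps6ka3, Rps6kb1 and Rps6kb2 had 9 tested probes between -0.13 and 0.08, of which 1, of Rps6kb1, was called lower. Larp1, which binds the pyrimidine-rich start of these mRNAs, had 5 probes from -0.33 to -0.02, and 2 were called lower. Frap1 (now Mtor) had 1 probe called higher at 0.35 and another at -0.06 that did not pass, and Eif4ebp1 1 at 0.15 called higher and 1 at -0.03 that did not pass. Transcript levels were measured here, and phosphorylation and translation were not.

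Across the whole series, 3776 probes were higher and 3600 lower of the 26545 tested. No small-subunit spot was saturated or marked as an outlier on any array. The labelled cell type was checked against its markers: all 12 probes of 9 melanocytic genes passed the background test in each channel of the 4 arrays, against 2 of 8 T cell probes, 1 of 8 macrophage probes, 0 of 4 Ptprc probes, 3 of 12 fibroblast probes and 0 of 6 endothelial probes. Fewer cells of a type and less RNA per cell cannot be told apart in such samples.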

How the data were processed

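RNA of 4 paired samples was measured on 2-colour Agilent arrays. Per the file headers, Agilent Feature Extraction 9.5.1.1 made the deposited files, which give spot intensity on a linear scale, flags (other values of 0 or 1) and log10 ratios of Cy5 over Cy3. The version in the submitters' processing notes is 9. The deposited value table of log10 ratios equalled the ratios in the scanner files (largest difference 0). Per the file headers, the authors' software merged 2 scan gains, and the processed signals were background-subtracted, detrended and dye-normalised. All 4 arrays lay on 1 slide in 1 scan, so slide could not be a block.

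Mean signals were corrected by normexp with the median local background (offset 50) and normalised by loess. Control spots had weight 0, outliers were dropped, and repeat spots were averaged. The test took the 26545 of 41174 probes that stood well above background in Cy3 or Cy5 on 3 or more arrays. The log2 ratios entered limma 3.58.1 (R 4.3.3) and were compared with 0 (two-sided, Benjamini-Hochberg over all tested probes, threshold 0.05), which pairs the channels of an array. Confidence intervals are at 95%. The same log2 test was run on the deposited processed signals. Pairs of probes of a gene were tested on their difference per array. The code was tested on simulated data. The number of arrays limits the precision. The p-values rest on the spread among passages of 1 line.

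The genes, lists and tests were chosen with earlier results of these data known. Genes in full are the 5 probes with the highest and up to 5 with the lowest ratio among those called with the same sign on 4 arrays, all probes of genes called both ways, and Rpsa, Rps6, Rps27, Rps27a, Rps27l, Rps4x, Rps19, Rps3 and Rps14, with up to 3 called assembly genes per direction. Other genes are named with their values after these had been seen. Some genes are not reported here by name and are counted only in totals. Head and body follow structural background knowledge. Alternatives covered background, normalisation, filter, outlier and saturated spots, variance prior, array weights, passage, separate channels, trends and each replicate left out. Leaving out spots read at low gain, centring within gain classes and including overlapping pairs were choices made with the data in view.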

Additional observations from a re-analysis of the deposited data

Results flagged for a closer look

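Of 49 sets of 4 values (named probes, the median and the differences between probes of a gene), 6 had 1 array that stood far from the others. Chance flags about 1 in 20 such sets. The bright Rps4x probe had a log2 ratio of 0.62 on replicate 1, against 0.38 to 0.40 on the others. The dimmer Rpsa probe had -0.011 on replicate 1, against -0.12 to -0.10. The difference between the 2 bright Rps18 probes was 0.20 on replicate 4, against 0.34 to 0.36. The difference between 2 Rps19 probes was 0.37 on replicate 1, against 0.15 to 0.18. The difference between 2 Rps21 probes was 0.077 on replicate 1, against 0.16 to 0.17. The difference between the 2 Rps3a probes was 0.42 on replicate 2, against 0.32 on each of the others.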

How the results depend on the processing

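The values below follow the order higher then lower. In the deposited signals 12 small-subunit probes were higher, 9 genes were higher and 3 lower by the brightest probe, the median was 0.0033, 2382 of all tested probes were lower, and 10 probe pairs differed. The brightest Rps19 probe (-0.046) and that of Rps27l (-0.012) changed sign. With each array centred on its median without loess, the median of all tested probes shifted to 0.15 and that of the small-subunit probes to 0.83. There 0 probes were called in any group or direction by limma (35 and 0 small-subunit probes, and 968 and 38 of all, at an unadjusted p under 0.05), and 10 pairs differed. Rps15 (0.36), the dimmer tested probes of Rps19 (0.40) and Rps3 (0.41) and both Rpsa probes (0.50 and 0.10) changed sign. The brighter probes of Rps19 (0.79) and Rps3 (1.24) stayed above 0. Without spots read at low gain, 11 small-subunit probes remained to be tested, 1 probe and 1 gene were higher and 3 of each lower, the median was -0.086, and 0 of 1 pair differed (0 at an unadjusted p under 0.05). Centring within gain classes gave 24 probes higher and 8 lower and 3 genes lower. Removing trends gave a median of 0.043, 8 probes and 2 genes lower, and 4 assembly genes higher. Array weights gave 9 probes and 2 genes lower and 2 assembly genes higher, and the stricter filter 1 assembly gene higher.

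With no replicate block, that is with the channels as separate samples and without the pairing of the channels of an array, 330 of all tested probes were higher and 252 lower, 20 small-subunit probes were higher and 0 lower, 15 genes were higher and 0 lower, and 0 assembly genes were lower.

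Without 1 replicate, 26 to 31 small-subunit probes were higher and 2 to 4 lower, 20 to 25 genes were higher and 0 to 1 lower by the brightest probe, the median was 0.13 to 0.22, 19 to 20 pairs differed, 0 to 1 assembly genes were higher and 5 to 7 lower, and 2142 to 3515 of all tested probes were higher and 2080 to 2736 lower. The counts of all tested probes fell by over 1.5 times without replicate 2 (2219 and 2387) and without replicate 4 (2142 and 2080). The cause of these changes was not tested. The signal over background does not limit the bright probes, but the dim ones of Rps15a and Rps4x rest on low signals (7.36 and 7.44 in mean log2 intensity). The dim Rps12 probe was at 9.98, above the median of 8.95 over all tested probes.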
